A study of Mus musculus with 18 samples.

Results

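The genes described here are 10 genes of blood vessel growth: the ligand Vegfa, its receptors Kdr, Flt1 and Flt4, the coreceptors Nrp1 and Nrp2, the receptors Tek and Tie1, and the endothelial surface proteins Pecam1 and Eng. They were chosen by name, with earlier results of these data known. A differential m6A peak was counted for a gene when the annotation named a transcript of that gene. It was also counted when the gene assigned to the peak contained the peak centre. Under this rule, 8 of the 10 genes had 19 of the 40929 peaks used. The uteri came from pregnant wild-type (WT) ICR mice on day 5 and were compared under 3 treatments. Veh mice received vehicle, whose composition the paper does not state, by intraperitoneal injection from day 1 to day 4. LPS mice received the same vehicle and, on days 3 and 4, lipopolysaccharide, a bacterial cell wall component that causes inflammation. Mel+LPS mice received melatonin, dissolved in saline containing ethanol, in place of vehicle from day 1 to day 4, with lipopolysaccharide 30 min later on days 3 and 4. Each treatment had 3 input libraries and 3 libraries immunoprecipitated with an m6A antibody, 18 libraries in all, and the authors deposited 4 tables of differential peaks. Peaks higher or lower in LPS than in Veh are called LPS-up and LPS-down here, and peaks higher or lower in Mel+LPS than in LPS are called Mel-up and Mel-down.

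The comparisons ask where m6A on the messages of these genes differed after lipopolysaccharide, and where it differed again when melatonin was given with it. Each peak has a log10 likelihood ratio, a score for how much better the reads fitted a difference between 2 treatments than none. It is neither a methylation level nor a fold change. The tables give 1 value per peak and comparison, with none per replicate, so there is no replicate error, no statistical test of a peak was possible, and the read depth is unknown. The LPS-down table breaks off within chromosome 10 and was used on chromosomes 1 to 9, so Vegfa, Flt4 and Pecam1 were not covered there. Transcript levels are not part of these tables. The uterus was taken whole, and a change in m6A per transcript, fewer cells of a type and less RNA per cell cannot be told apart, nor could the endothelial origin of the signal be checked against marker levels.

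N6-methyladenosine (m6A) is a methyl mark on adenosines within mRNA, placed mainly on the A of short motifs around GGAC and often near stop codons and in 3′UTRs, where it is known to affect splicing, decay and translation. Vegfa is secreted by many cells and binds the tyrosine kinases KDR and FLT1 on endothelial cells, with the neuropilins as coreceptors. FLT4 is the receptor of the lymphatic ligands, and TEK with TIE1 transmits the signals of angiopoietins. In the early pregnant uterus, vessels around the implantation site become permeable and then grow into the decidua.

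The GGAC motifs under the exon peaks that the results turn on are shown first, as windows of 28 bases from the GENCODE M21 transcripts (GRCm38), 5′ to 3′ on the strand of the transcript, with GGAC in capitals. The first 5 lie where a peak of the LPS and Veh comparison overlaps one of the Mel+LPS and LPS comparison (the Nrp2, Flt1 and Tek windows), and the others are from the Nrp1 peak with the highest value, the Vegfa 3′UTR, the last coding stretch of Kdr and the coding part of Pecam1. The Nrp1 window is the sequence of Nrp1-203, a transcript that retains an intron, and its last base lies past the end of exon 2 of Nrp1-201.
Nrp2, 5′UTR, chr1:62704054-62704081, plus strand: gactgactgccaGGACccaggaggaaaa
Flt1, 3′UTR of the short isoform, chr5:147638731-147638758, minus strand: tctgccaaagacGGACatgaataagtta
Flt1, 3′UTR of the short isoform nearer its stop codon, chr5:147639012-147639039, minus strand: caaaatgagtttGGACatgataacgtaa
Flt1, across the stop codon of the short isoform, chr5:147639113-147639140, minus strand: tcaaacattaaaGGACtcatttgaaaag
Tek, 3′UTR, chr4:94874114-94874141, plus strand: gtgctgtgtttgGGACcctcctcataca
Nrp1, exon 2 of Nrp1-201, chr8:128363367-128363394, plus strand: tttcgatttggaGGACagagactgcaag
Vegfa, 3′UTR, chr17:46017750-46017777, minus strand: agcaatggggcaGGACccgcaagcccct
Kdr, coding part of the last exon, chr5:75934479-75934506, minus strand: agcgacgaggcaGGACttttaaagatgg
Pecam1, exon 3, chr11:106699731-106699758, minus strand: gctgttctataaGGACgatgcgatggtg

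**Figure D1:**
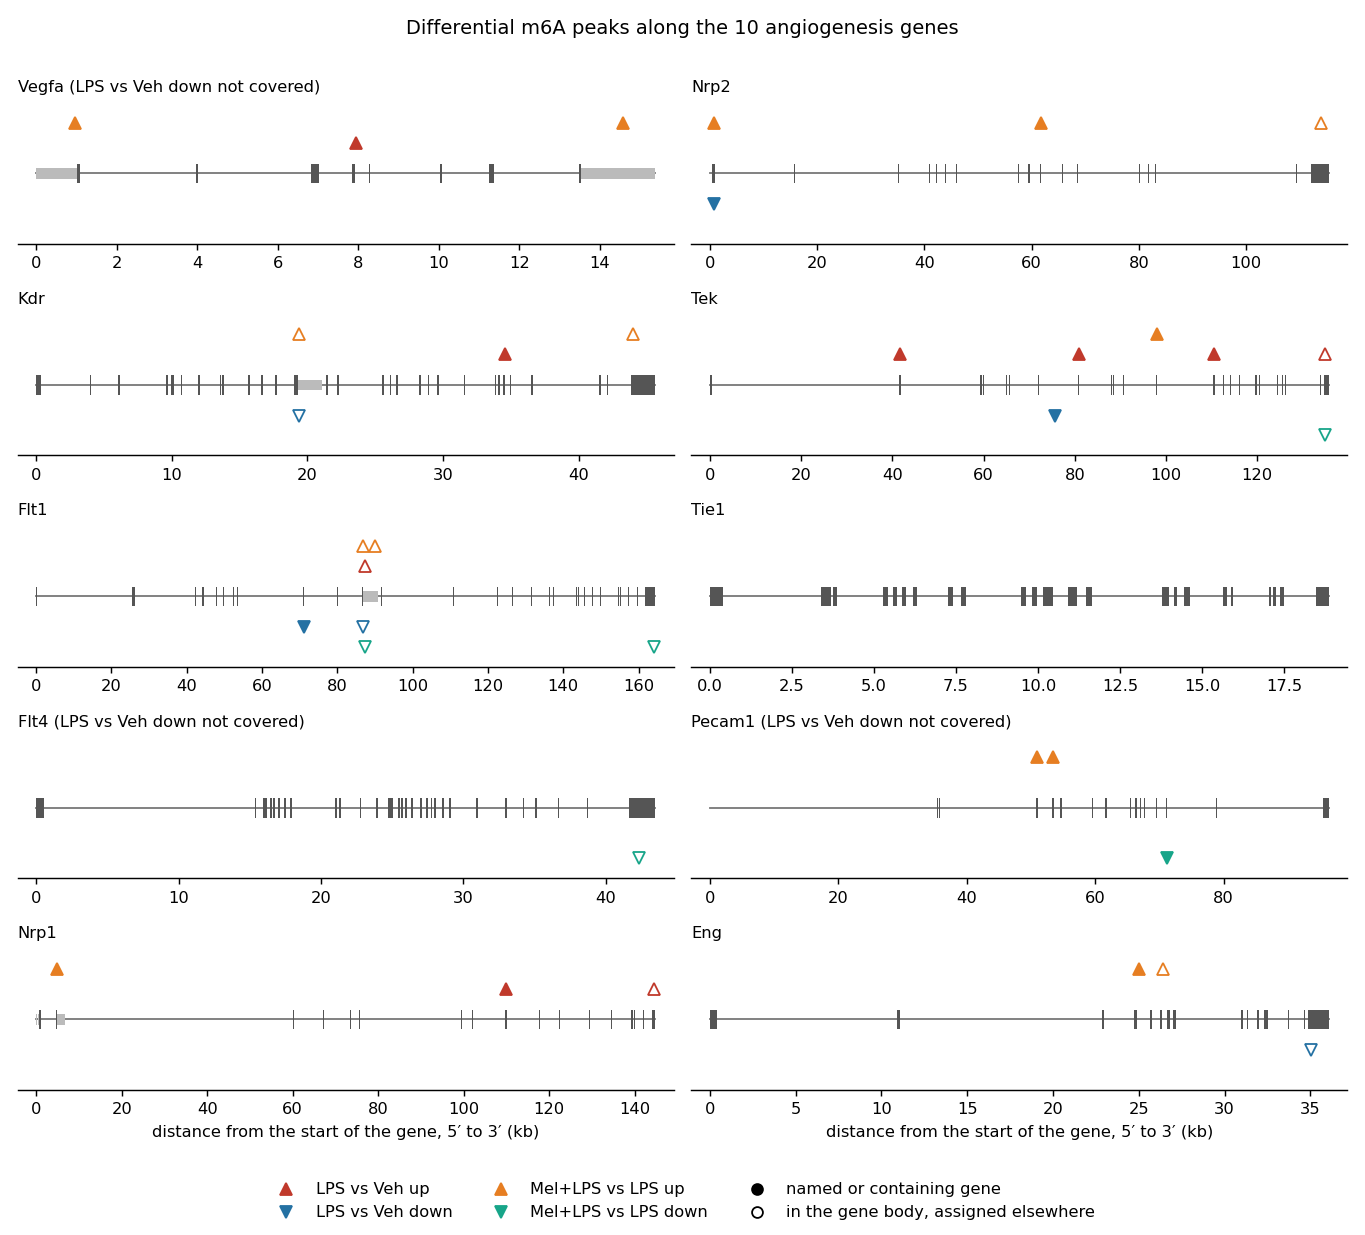
Differential m6A peaks along the 10 genes, with distance from the start of each gene in kb on the x axis, exons of the principal transcript as dark boxes and those of other transcripts as light boxes. Upward triangles are peaks in the up tables and downward triangles peaks in the down tables, filled where the counting rule applied and open where only the position was inside the gene; Tek and Flt1 each carry 7 and Tie1 carries none.

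Most peaks of the 10 genes had low values. The tables used held 12023 LPS-up, 6259 LPS-down, 13436 Mel-up and 9211 Mel-down peaks. Of the 19 peaks of the 10 genes, 15 were in an up table (78.9%), where 62.2% of all peaks used were, and the values ran from 1.08 to 13.2, with 17 below 3. The values of 14 lay below the median of all peaks of their own table. An LPS-up peak was found in 4 of the 10 genes (40.0%), against 19.6% of 21924 protein-coding genes, and an LPS-down peak in 3 of the 7 genes covered (42.9%), against 21.6%. A Mel-up peak was found in 6 of 10 (60.0%), against 25.2%, and a Mel-down peak in 1 of 10, against 14.9%. When a peak was instead counted for a gene with an exon under the peak centre, the numbers were 3 of 10 LPS-up (all genes, 16.9%), 4 of 7 LPS-down (17.6%), 7 of 10 Mel-up (21.7%) and 3 of 10 Mel-down (13.0%). These shares are descriptions of 10 genes chosen by name with earlier results of these data known, and no chance test was made. The protein-coding genes were counted whether or not they are expressed in the uterus, and 9071 of them had any peak by the rule. Of those 9071, 4296 had an LPS-up peak, 5514 a Mel-up peak and 3259 a Mel-down peak. Of the 8 genes above with a peak by the rule, the numbers were 4, 6 and 1. The part of expression in these shares was not tested. The 10 genes are also long, with a median gene length of 71.0 kb against 17.4 kb for all protein-coding genes and a median longest transcript of 4444 bases against 2882, and the part of length in these shares was not tested.

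The counting rule missed peaks because the authors' annotation names no transcript for a UTR peak and assigned many to a neighbouring gene. When every peak with its centre inside one of the 10 genes was counted, an extension chosen after the data were seen, there were 35 peaks in 9 genes, 24 in the up tables (68.6%) and 11 in the down tables. The share of all protein-coding genes with a peak by this count was not computed. The 9 of 10 genes thus cannot be read as many or few. Of the 16 added peaks, 15 were annotated as 3′UTR and 1 as promoter. With these, there were 9 LPS-up, 6 LPS-down, 15 Mel-up and 5 Mel-down peaks. Their median values were 1.48 for LPS-up peaks, where all peaks of the table had 2.88, and 2.46 for LPS-down peaks, where all had 2.65. For Mel-up peaks the median was 2.01, where all had 2.17, and for Mel-down peaks 1.26, where all had 3.09. The added peaks are named as lying inside the gene.

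**Figure D2:**
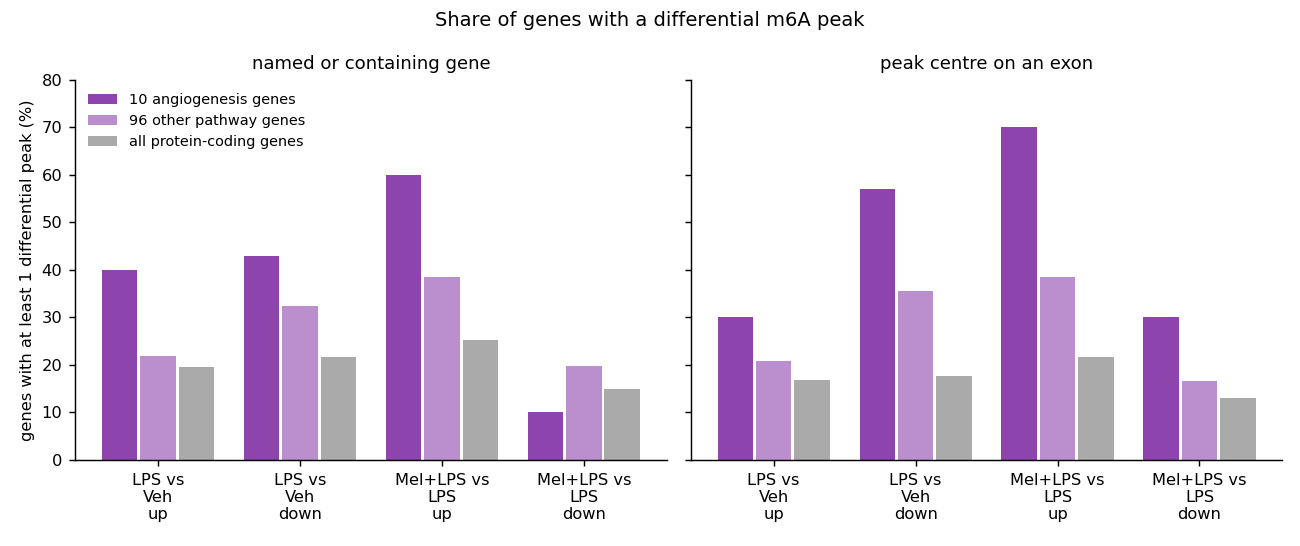
Share of genes with at least 1 peak in each table, in percent from 0, for the 10 angiogenesis genes, the 96 other pathway genes and all protein-coding genes (left, by the counting rule; right, by the peak centre on an exon). By the rule the shares in the Mel-up table were 60.0%, 38.5% and 25.2%; bars have no error because the tables hold no replicates.

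Vegfa, the secreted growth factor that drives endothelial division and permeability, had 3 peaks. A Mel-up peak at chr17:46017693-46017878 (1.85) lay in the 3′UTR, with its centre 1073 bases after the stop codon of Vegfa-202. Another Mel-up peak, at chr17:46031210-46031593 (2.31), lay on the first exon, which the authors' table annotated as 5′UTR and GENCODE places in the coding part of Vegfa-202. An LPS-up peak at chr17:46024338-46024498 (1.40) covered 55 bases of exon 4 of 8 of Vegfa-204 and 106 bases outside that transcript's exons. Both ends of the Vegfa message thus carried Mel-up peaks, and the LPS-up peak lay between them, 6711 bases of genome from the first-exon peak and 6459 from the 3′UTR peak.

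Kdr, the main signalling receptor of Vegfa, had 1 peak by the rule and 4 inside the gene. The rule's peak, LPS-up at chr5:75943778-75943955 (1.74), had only 31 bases on exon 25 of 30 and 147 in the intron after it. A Mel-up peak at chr5:75934385-75934549 (2.99) lay fully in exon 30 of 30, with its centre 44 bases before the end of the stop codon, and held the Kdr window shown above. The remaining pair overlapped at 1 place, by 169 bases. An LPS-down peak at chr5:75958971-75959188 had a value of 2.59, and a Mel-up peak at chr5:75958949-75959139 had a value of 1.69. The authors' table annotated both as 3′UTR, and in GENCODE they lay on the last exon of Kdr-203, a transcript that retains an intron, with 72 and 23 bases on exon 13 of Kdr-201. Neither held a GGAC.

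Flt1, a receptor that binds Vegfa tightly and signals weakly, had 1 peak by the rule and 7 inside the gene. The rule's peak was LPS-down, at chr5:147654908-147655060 in intron 11, with a value of 7.89, higher than all but the top of its table (percentile 92.6). Another 5 peaks lay on the last exon of Flt1-203, a coding isoform of 13 exons that ends within the gene. Such short isoforms are known to encode soluble FLT1, a secreted trap for Vegfa. At the stop codon of Flt1-203, an LPS-down peak at chr5:147639015-147639482 had a value of 4.76 and a Mel-up peak at chr5:147639003-147639379 had a value of 4.19. Of these, 258 and 155 bases were on exon 13 of the full-length Flt1-202, and 210 and 222 lay beyond it, in sequence that is exon in Flt1-203 and intron in Flt1-202. The stretch they share holds a GGAC just behind the stop codon, with its A 4 bases past it, and another 105 bases past it, both shown above. The full-length and short messages share exon 13, so the peaks cannot be assigned to 1 isoform over that stretch.

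A short distance downstream, the directions were the other way round. An LPS-up peak at chr5:147638603-147638777 (2.01) and a Mel-down peak at chr5:147638609-147638759 (2.17) lay 440 and 446 bases after the stop codon of Flt1-203. The gap between the Mel+LPS peaks of the neighbouring sites was 243 bases. A further peak, Mel-up at chr5:147635815-147635986 (2.01), lay 3230 bases after that stop codon. The end of the full-length message had 1 peak, Mel-down at chr5:147561914-147562081 (1.13), 2223 bases after the stop codon of Flt1-202 and low in its table (percentile 1.86). The 3 peaks centred past the short stop codon had no base on an exon of Flt1-202.

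Flt4, the receptor of Vegfc and Vegfd on lymphatic endothelium, had no peak by the rule. Inside the gene there was 1 peak, Mel-down at chr11:49651522-49651621, 488 bases after the stop codon, with a value of 1.26 (percentile 7.71).

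Nrp1, a coreceptor for Vegfa and class 3 semaphorins, had the highest value of the 10 genes. This peak was Mel-up at chr8:128363349-128363484 and had a value of 13.2 (percentile 99.0). It covered 45 bases of exon 2 of 17 of Nrp1-201 and 91 bases of the following intron, all of which is exon in the retained-intron transcript Nrp1-203. The other peaks were LPS-up and low. A peak by the rule at chr8:128468538-128468641 (1.32) lay on exon 9 of 17, and an added peak inside the gene at chr8:128503066-128503226 (1.17) lay in the 3′UTR, 332 bases after the stop codon. The 3 Nrp1 peaks were far apart, with gaps of 105053 and 34424 bases of genome.

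Nrp2, the coreceptor found on veins and lymphatic vessels, had 3 peaks by the rule. In the 5′UTR on exon 1, an LPS-down peak at chr1:62704035-62704185 had a value of 2.32, and a Mel-up peak at chr1:62704052-62704154 had a value of 1.90. The latter lay wholly within the former, and the Nrp2 window shown above is in both. The third, Mel-up at chr1:62764972-62765120 (2.75), had 23 bases on exon 10 of 17 and 126 in the intron. Inside the gene there was also a Mel-up peak at chr1:62817109-62817356 (1.56), in the 3′UTR and 1595 bases after the stop codon. Nrp2 had no LPS-up peak and no Mel-down peak.

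Tek, the angiopoietin receptor that keeps vessels quiescent, had 5 peaks by the rule, the most of the 10 genes, and 7 inside the gene. Of the 5, 3 were LPS-up. They lay at chr4:94780920-94781106 (1.93), which the authors' table annotated as 5′UTR and GENCODE places in coding exon 2 of 23, at chr4:94820192-94820327 (1.48), with 44 bases on exon 8, and at chr4:94849727-94849844 (1.48), on exon 13. An LPS-down peak at chr4:94814935-94815035 (1.08) was intronic, and a Mel-up peak at chr4:94837254-94837377 (1.77) lay on exon 12. Near the stop codon, an LPS-up peak at chr4:94874100-94874300 (1.92) and a Mel-down peak at chr4:94874053-94874187 (1.63) overlapped by 88 bases, 202 and 122 bases into the 3′UTR. The values of all 7 lay below the medians of their tables.

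Tie1, the receptor that pairs with TEK, had no peak in any table. The nearest peak was 27.6 kb away, at chr4:118517686-118517885, LPS-down with a value of 5.86 and assigned to Gm12857. Only peaks that differed between treatments were listed, so m6A that was alike in all treatments would give none. Peaks also depend on the amount of RNA and the depth of sequencing. No peak in these tables thus does not show that the message lacks m6A.

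Pecam1, the adhesion protein CD31 of endothelial junctions, had 3 peaks, all of them Mel-up or Mel-down. LPS-down peaks were not covered on its chromosome, so one there could not have been seen. Mel-up peaks lay on exon 4 at chr11:106696984-106697233 (2.21) and on exon 3 at chr11:106699599-106699773 (1.95), 2365 bases apart. A Mel-down peak at chr11:106679372-106679502 (1.16, percentile 3.01) was intronic.

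Eng, the coreceptor endoglin of BMP9 signalling, had 1 peak by the rule, Mel-up at chr2:32671547-32671648 (1.70) in intron 4. Inside the gene, a Mel-up peak at chr2:32672965-32673081 (3.46) was annotated as the promoter of LOC115489602 and also fell in an Eng intron. An LPS-down peak at chr2:32681568-32681694 (1.13) lay 70 bases after the stop codon of Eng.

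**Figure D3:**
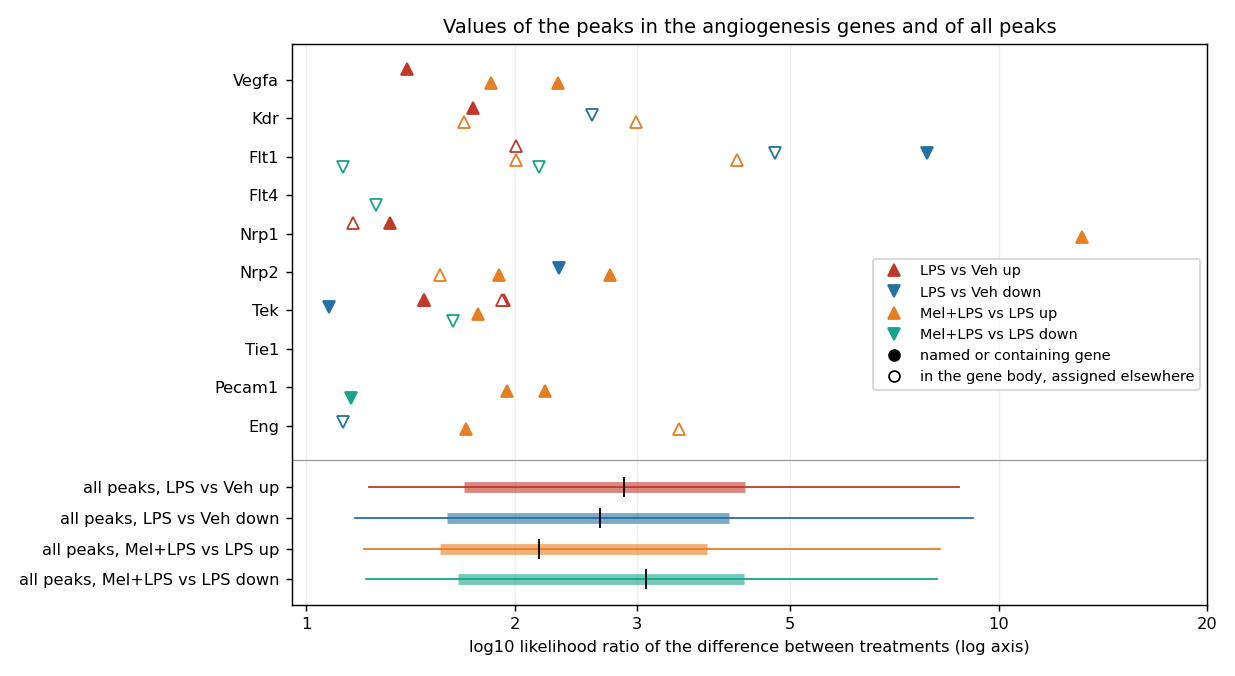
Log10 likelihood ratio (log axis) of every peak inside the 10 genes, 1 row per gene, with triangles as in the map of peaks along the genes; below, each table's peaks as a line from the 5th to the 95th percentile, a box from the 25th to the 75th percentile and a tick at the median. The Nrp1 peak at 13.2 and the Flt1 peak at 7.89 stand at the right, and 30 of the 35 peaks are below 3.

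In the 10 genes, 5 places had a peak in both comparisons, 1 of them (Nrp2) by the rule. The share of such places over all peaks was not computed, so 5 cannot be read as many or few. Such places were also found in many of the other pathway genes. Most of those had opposite directions, while those in Jam3, Spred2 and Svep1 were LPS-up and Mel-up. Both comparisons used the same LPS libraries, so values that are high or low in those libraries enter both, and the overlap was not tested. The Kdr, Nrp2 and larger Flt1 places had an LPS-down peak and a Mel-up peak. Their values were 2.59 and 1.69 for Kdr, 2.32 and 1.90 for Nrp2, and 4.76 and 4.19 for Flt1. The Tek and smaller Flt1 places had an LPS-up peak and a Mel-down peak. Their values were 1.92 and 1.63 for Tek, and 2.01 and 2.17 for Flt1. The shared length ran from 88 bases in Tek to 365 in Flt1, and 151 bases were shared at the smaller Flt1 place. A comparison of Mel+LPS with Veh was not analysed here, so whether a place returned to its level in Veh mice could not be read.

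**Figure D4:**
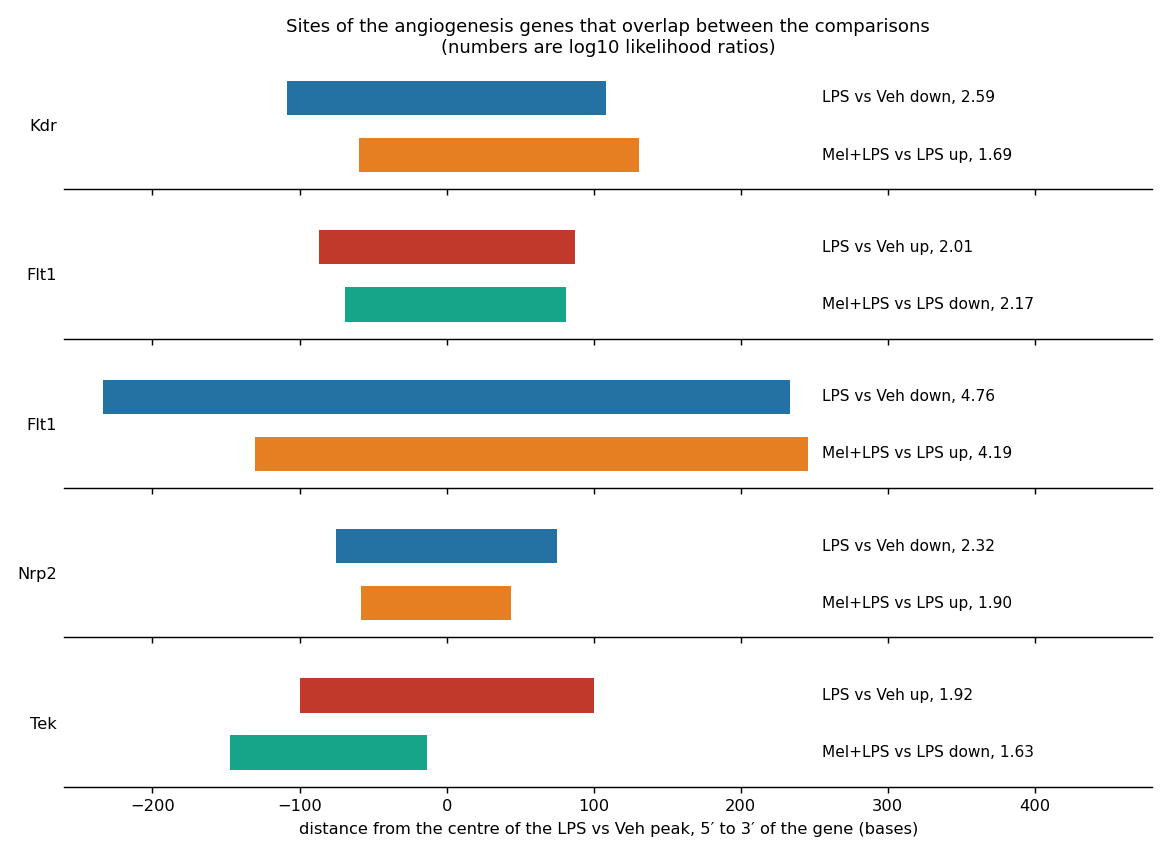
The 5 places with a peak in both comparisons, drawn as bars to scale, with the distance in bases from the centre of the LPS-up or LPS-down peak on the x axis and the log10 likelihood ratio of each peak printed beside its bar (upper bar, LPS against Veh; lower bar, Mel+LPS against LPS). The shared stretches measure 88 bases in Tek, 103 in Nrp2, 151 and 365 in Flt1 and 169 in Kdr.

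The peaks of the 10 genes held GGAC about as often as other exon peaks. The motif was searched on the transcript strand only, and GGAC was found in 10 of the 15 exon peaks of the rule (66.7%, Wilson 95% interval 41.7 to 84.8) and in 19 of the 30 exon peaks inside the genes (63.3%, interval 45.5 to 78.1). Over all exon peaks of the same range of widths, 100 to 468 bases, the share was 57.5% (10149 of 17640), and it lay inside both intervals. When the window was moved 100 bases toward the 5′ end, the shares were 60.0%, 66.7% and 56.9%, and each moved share of the members lay inside the interval of the unmoved one. The looser motif DRACH (A, G or T, then A or G, then AC, then A, C or T), which overlaps GGAC, was in 93.3%, 93.3% and 97.2%. The intervals cover counting error only, and peaks of 1 gene that overlap share sequence.

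Among 96 other genes of vessel growth, listed by role, 61 (63.5%) had a peak in at least 1 table by the rule, against 41.4% of protein-coding genes and 8 of the 10 genes above. By the peak centre on an exon, 57 (59.4%) had a peak, against 38.6% of protein-coding genes and 9 of the 10. By table, 21 of 96 (21.9%) had an LPS-up peak, against 19.6% of protein-coding genes, and 20 of the 62 covered (32.3%) an LPS-down peak, against 21.6%. A Mel-up peak was found in 37 (38.5%), against 25.2%, and a Mel-down peak in 19 (19.8%), against 14.9%. The list was also made with earlier results of these data known, and the listed genes had a median length of 30.1 kb. Here too the protein-coding genes were counted whether or not they are expressed in the uterus. For the genes named next, the value is the highest of the gene's peaks by the rule in any table. Many of these genes had further peaks, some in the other direction, so the value given does not set a direction for the whole gene.

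Among the other VEGF ligands, 2 of 4 had a peak, both Mel-up. Pgf, the placental growth factor that binds FLT1, had a value of 3.74 in its 3′UTR, and Vegfd, a ligand of FLT4, 2.19. Of the angiopoietins and their regulators, which act on TEK, 5 of 6 had a peak. Angpt4 was Mel-down in its intron 1 with 9.17, and at that place it was LPS-up with 5.52. Ptprb, the endothelial phosphatase that restrains TEK, had an intronic Mel-down peak with 6.29, and Angpt1, the activating ligand, a Mel-up peak with 3.82. The overlapping peaks of Angpt2, the context-dependent ligand of TEK, were low, with 1.51 LPS-down and 1.20 Mel-up.

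Of the semaphorins and plexins, which share the neuropilins with Vegfa, 9 of 12 had a peak. Sema3e, a repulsive ligand of plexin D1, had an LPS-down peak annotated to exon 16 of 17 with 19.0, the highest value of a listed gene by the rule. Elsewhere Sema3e also had Mel-up (12.2), Mel-down (6.08) and LPS-up (4.56) peaks. Plxna1 was Mel-up with 8.53 at a peak that the authors annotated as 5′UTR and whose centre was on none of its GENCODE exons. Sema3d was LPS-up with 6.38. Of the BMP9 branch in which endoglin acts, 6 of 14 had a peak (42.9%), near the 41.4% of protein-coding genes. The receptor Bmpr2 (7.66) and the signal transducer Smad5 (6.23) were Mel-up, and Smad1 (3.85) was Mel-down in an intron. At other positions Bmpr2 had an LPS-up peak with 6.15 and a Mel-down peak with 2.92.

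Of the endothelial junction and surface genes, 7 of 12 had a peak. Vwf, the clotting factor stored in endothelium, was LPS-up on exon 28 with 7.80, and Cd34 (2.68) and Cdh5 (2.57), the latter the VE-cadherin of endothelial junctions, were Mel-up. Of the endothelial transcription factors, 10 of 12 had a peak. Tal1 was LPS-down with 7.70, Erg was LPS-up in an intron with 4.70, and Ets1 was Mel-down in an intron with 3.85. Ets1 also had a Mel-up 3′UTR peak with 4.08, which the rule did not count. Of the genes of hypoxia sensing, which control Vegfa transcription, 4 of 8 had a peak by the rule, and their values were low. Egln3, which had none by the rule, had Mel-up 3′UTR peaks with 4.73 and 2.73 that were assigned to a neighbouring gene. Vhl (2.51) and Hif1a (2.02) were Mel-up, and Arnt (1.86) was LPS-down.

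Of other angiogenic signalling genes, 7 of 15 had a peak. The apelin receptor Aplnr (5.56) and the FGF receptor Fgfr1 (3.40) were Mel-up, and Efnb2, the arterial ephrin, was LPS-down (2.52). Efnb2 also had an LPS-up peak with 1.37. Of the inhibitors and feedback genes, 9 of 10 had a peak. Spry4 (4.77), Spred1 (2.45) and Vash1 (2.37), which dampen growth factor signalling or vessel growth, were Mel-up. Of the lymphatic genes, 2 of 3 had a peak, and Prox1, the lymphatic master regulator, was Mel-up (5.42), while Lyve1 was LPS-down (1.74).

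Tek, the member with the most peaks, had LPS-up, LPS-down and Mel-up peaks by the rule. Of the 62 listed genes that all 4 tables cover, 1 had a peak in the same tables and in no other by the rule, which does not count the Mel-down peak inside Tek given above. This was Svep1, a large extracellular matrix protein, whose highest value was 3.37, Mel-up on exon 38 of 48.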

How the data were processed

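m6A-seq was performed by the authors on uterine RNA with Fastp, STAR 2.5.2a, exomePeak2, MACS2 3.4, ChIPseeker 1.22.1 and HOMER 4.10 (versions as given in the submitters' processing notes). The values used are the authors' deposited score of each differential peak, the log10 likelihood ratio of the comparison by MACS2. How replicates were combined is not given in the sources used here.

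Peak positions match GRCm38. Peaks were placed on GENCODE M21 transcripts, and all 10 members and 96 listed genes matched by symbol. Background shares are over 21924 protein-coding genes, or 12015 on chromosomes 1 to 9. Named genes are the 10 members, up to 3 listed genes per role with the highest value, some of the listed genes with overlapping peaks (which the rule allowed and which were picked after their values were seen), and genes with the peak pattern of the member with the most peaks. Egln3 was named in addition, after its values were seen. Members and lists were chosen with earlier results of these data known. The alternatives were stricter values, other rules for the gene of a peak, other overlaps, merged peaks, a moved window and DRACH. The count inside genes, and the exon count of the listed genes, were added after the data were seen. The placing of positions on exons and transcripts was tested on random positions, and the counting rule on made rows with known answers. The software was pandas 2.3.3, numpy 2.4.6, matplotlib 3.10.9 and scipy 1.17.1 under Python 3.11.15.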

Additional observations from a re-analysis of the deposited data

How the results depend on the processing

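Most peaks of the 10 genes did not pass a stricter value. The medians of all peaks were 2.88 for LPS-up, 2.65 for LPS-down, 2.17 for Mel-up and 3.09 for Mel-down. Many peaks outside the 10 genes thus also failed a value of 3. The shares of all peaks and of all genes that pass were not computed. At a log10 likelihood ratio of at least 3, and also of at least 6, there were 0 LPS-up, 1 LPS-down, 1 Mel-up and 0 Mel-down peaks, with the same numbers of genes (Flt1 and Nrp1). At 3 no place by the rule was left in both comparisons (0), 1 place was left inside the genes (the larger Flt1 place), and the other pathway genes with a peak were 10 LPS-up, 3 LPS-down, 12 Mel-up and 7 Mel-down. With the assigned gene alone, 3 peaks in 2 genes were LPS-up. With the peak centre on an exon, 4 peaks in 3 genes were Mel-down, and with the centre moved 100 bases, 15 peaks were Mel-up and 4 Mel-down. Inside the genes there were 6 LPS-down peaks in 5 genes, 15 Mel-up peaks and 5 Mel-down peaks in 4 genes. Inside the genes, 5 places were in both comparisons, or 4 where at least 50% of both peaks overlapped. DRACH gave 93.3% in place of 66.7% for GGAC. Of 74 alternative values, 39 stayed within the margin set for a change (1.5 times for a count). No paired analysis was possible because the tables hold no value per replicate, and for the same reason no replicate could be left out.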

Other observations

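A peak that was assigned to Eng but lay outside it, 5333 bases before the gene start at chr2:32641096-32641262, was Mel-up with a value of 6.06 (percentile 88.4) and was annotated as distal intergenic. Plxna4, a semaphorin receptor subunit that works with the neuropilins, had 2 neighbouring places in its 3′UTR with a peak in both comparisons. At chr6:32149666-32149863 a peak was LPS-up with 12, and at chr6:32149664-32149857 a peak was Mel-down with 1.29. Close by, at chr6:32150030-32150138, a peak was LPS-down with 1.03, and at chr6:32150133-32150261 a peak was Mel-up with 8.55. These peaks overlapped only at their edges, and the LPS-down value was near the lowest of its table (percentile 0.391). Vwf had places with the same bounds in both comparisons. At chr6:125582472-125582671 in intron 6 of 51, the peaks were LPS-up with 3.80 and Mel-down with 3.86. At chr6:125683641-125683795 they were LPS-up with 2.26 and Mel-down with 3.45. The latter place was annotated to exon 49 of 52, and its centre was on no GENCODE exon of Vwf. The comparisons share the LPS libraries, so these values are given side by side and were not tested.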
